A study of Mus musculus with 12 samples.

Results

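Cadherins, integrins, claudins and connexins are the membrane proteins that hold cells to each other and to the matrix, seal the space between cells and join their cytoplasm. The genes examined were those with a platform symbol of the cadherin, protocadherin, Celsr, integrin, claudin or connexin families, together with Perp, a membrane protein of desmosomes that p53 can induce. This choice gave 93 genes with 163 probe sets, of 15964 genes with 29131 probe sets that carry 1 symbol. They comprised 17 cadherins, 13 protocadherins, 3 Celsr genes, 26 integrins, 18 claudins, 11 connexins, Perp, and 4 genes that share only the integrin name (Itgb1bp1, Itgb1bp2, Itgb3bp and Itgbl1). A further 11 probe sets that carry several symbols, 8 of the protocadherin alpha cluster and 3 of the Cldn34 group, were left out.

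MIN6 is a mouse β-cell line, made from a tumour that a viral oncogene (SV40 T antigen) had caused, and clone 4 (C4) is 1 subclone of low-passage parental (Pr) cells obtained by limiting dilution. Parental cells were compared at low passage (Pr-LP, passages 17 to 20) and at high passage (Pr-HP, passages 35 to 40), and clone 4 cells likewise (C4-LP, passages 17 to 20, and C4-HP, passages 40 to 50), all grown alike in medium with 25 mM glucose and 13% fetal bovine serum. The study looked for genes tied to insulin secretion in response to glucose, for which it set Pr-HP against the other populations. Each population was hybridised once to each of 3 Affymetrix murine genome U74 chips (A, B and C), 12 arrays in all, so there were no replicate arrays. Values are deposited intensities on a linear scale, and they compare 1 probe set between populations, not 1 gene with another. The lowest value of an array lay between 5.79 and 11.5 units, and how values near this low end were made is not given, so ratios over dim populations hold for this scale only. Where 4 values stand in a row below, parental cells come before clone 4 cells, and low before high passage. In whole cultures, fewer cells of a type and less RNA per cell cannot be told apart.

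In an epithelium, classical cadherins such as E-cadherin (Cdh1) and N-cadherin (Cdh2) bind their like on the next cell and hold catenins inside it. Claudins form the strands of tight junctions, connexins form gap junctions, and paired α and β integrins hold the cell to laminins, collagens and other matrix proteins. Celsr proteins are large cadherins with a receptor-like membrane part that orient cells within a sheet. In islets, β cells are joined by cadherins and by gap junctions of connexin 36 (Gjd2), through which their electrical activity is shared, and they meet the vascular basement membrane through β1 integrins (Itgb1).

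Among the members, the promoters of Cldn3 and Cldn4 are shown because both genes were highest in Pr-LP, and that of Celsr2 because a probe set of it was the member called in the test across all probe sets. The sequences are the 250 bases before the annotated start, from RefSeq on build GRCm38.p6, read along the gene 5′ to 3′. Capitals mark the E-box CACCTG, read as CAGGTG on the other strand, the letters bound by zinc finger repressors of the Snail and Zeb families in several junction genes.
Cldn3: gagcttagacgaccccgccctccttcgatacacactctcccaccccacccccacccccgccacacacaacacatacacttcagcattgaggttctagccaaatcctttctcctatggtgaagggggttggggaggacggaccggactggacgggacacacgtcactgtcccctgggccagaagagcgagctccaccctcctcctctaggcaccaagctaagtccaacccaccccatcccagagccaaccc
Cldn4: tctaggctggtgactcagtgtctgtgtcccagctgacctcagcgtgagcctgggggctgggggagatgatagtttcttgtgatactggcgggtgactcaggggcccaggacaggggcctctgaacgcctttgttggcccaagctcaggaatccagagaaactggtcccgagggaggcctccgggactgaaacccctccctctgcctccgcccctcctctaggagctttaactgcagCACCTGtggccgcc
Celsr2: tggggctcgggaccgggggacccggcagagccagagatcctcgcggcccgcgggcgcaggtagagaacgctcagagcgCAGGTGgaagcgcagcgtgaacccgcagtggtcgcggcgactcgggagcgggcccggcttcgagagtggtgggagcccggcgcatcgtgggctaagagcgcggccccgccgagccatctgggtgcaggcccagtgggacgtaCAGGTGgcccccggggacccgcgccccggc
The Cldn3 stretch lies at chr5:134985964-134986213 on the plus strand, that of Cldn4 at chr5:134946935-134947184 on the minus strand, and that of Celsr2 at chr3:108415580-108415829 on the minus strand. The starts of Cldn3 and Cldn4, which point away from each other, are 39280 bases apart. The Cldn4 stretch held 1 E-box, whose first letter lies 14 bases before the start. The Celsr2 stretch held E-boxes 172 and 30 bases before the start, and these letters were not in the Cldn3 stretch. An E-box was present in 17.2% of the 32851 promoter stretches of this length in the table and in 16 of the 77 stretches of members (20.8%). The Celsr2 stretch held 32 CG pairs, those of Cldn3 and Cldn4 held 9 and 7, and the median stretch of the table held 6. Of the 93 genes 62 had an entry in the table, and Perp and Cdh4 had none.

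The level of most members was alike in the 4 populations. A gene was represented by the probe set with the highest mean, and it was compared if at least 1 array exceeded the 40th percentile of its chip, which left 60 of the 93 genes and 12267 genes in all. Intensities under the 20th percentile of the chip (67.3, 58.6 and 29.1 units on chips A, B and C) were raised to it before ratios were taken. The highest population exceeded the lowest by a median of 1.21-fold over the 60 members and of 1.23-fold over all genes. This ratio passed 2-fold for 5 of the 60 members (8.33%), against 7.43% of all genes. The 5 were Perp, Cdh4, Cdh8, Cldn3 and Cldn4. Perp is among them though it entered by name, with its difference already known from the study. By these probe sets no such member was among the protocadherins (12 genes compared) and the integrins (17 genes compared). Among the other protocadherin probe sets that passed the filter, those of Pcdh11x, Pcdh9 and Pcdhb17 described below did pass 2-fold.

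**Figure D1:**
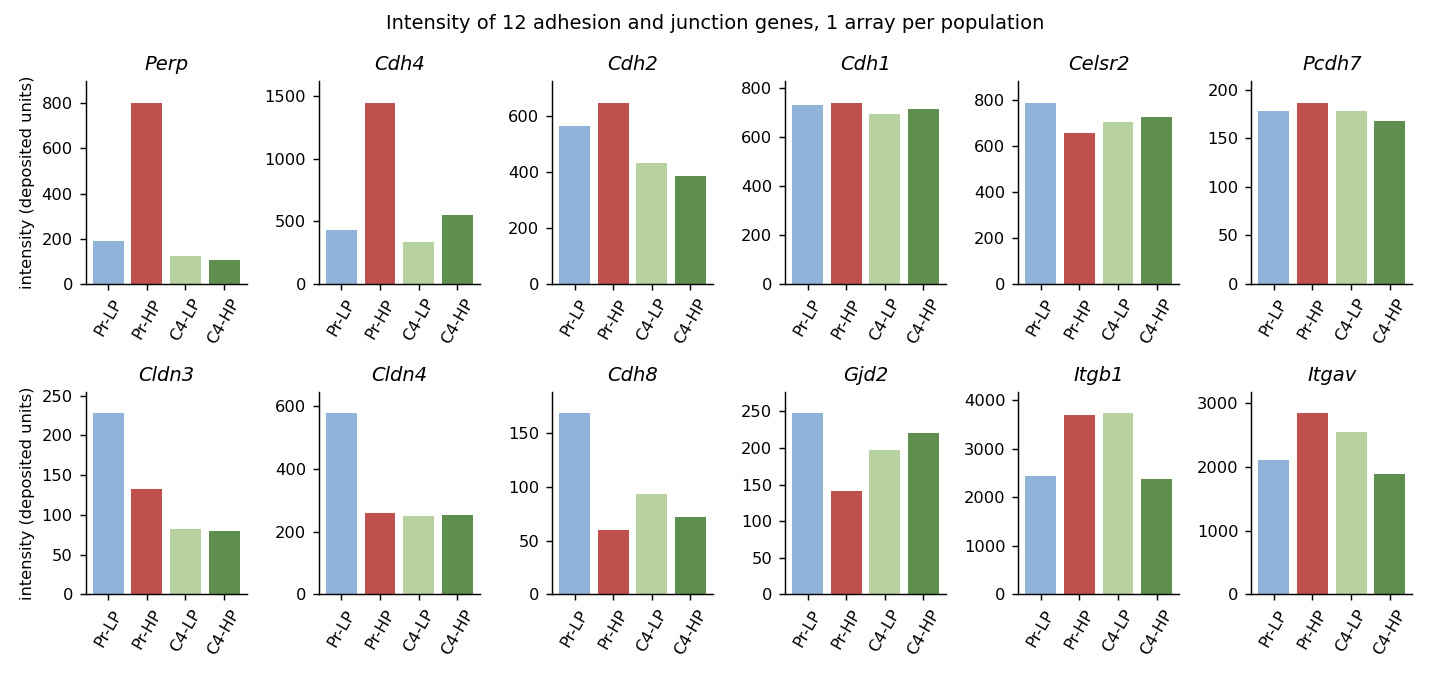
Intensity of 12 member genes in the 4 populations, in deposited units from 0; each bar is 1 array and each panel has its own scale. Perp (802.8 units) and Cdh4 (1449 units) stand highest in Pr-HP, Cldn3, Cldn4 and Cdh8 stand highest in Pr-LP, and Cdh1 and Pcdh7 are nearly level.

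Pr-HP was first set against the mean of the other 3 populations. Members were again counted by the probe set with the highest mean. Of the 60 members 2 were more than 2-fold higher in Pr-HP, Perp and Cdh4 (3.33%, against 1.35% of all genes). Perp entered by name and not by family, and the study had listed it as higher in Pr-HP on these arrays. Its place in this count was thus known in advance, and Cdh4 was the only other gene counted. None was more than 2-fold lower (0 of 60, against 1.22% of all genes). The median log2 difference was 0.004 over the members and -0.005 over all genes, and 48 of the 60 members lay within 1.25-fold. Pr-HP was also tested against the other 3 populations with limma over 23340 probe sets, taking the spread of these 3 as the error. The test takes the mean of their log2 intensities, whereas the ratios take the mean of their linear intensities. These 3 are different populations and not replicates of 1 condition. Of 88 member probe sets 1 was called at an adjusted p under 0.05, a probe set of Celsr2 that was lower in Pr-HP, where 0.0171% of all probe sets were called lower. No member probe set was called higher, where 0.0643% of all were. At an unadjusted p under 0.05 from limma there were 12 of the 88 member probe sets (13.6%) and 9.79% of all.

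Perp stood at 190.0 units in Pr-LP, 802.8 in Pr-HP, 121.4 in C4-LP and 106.4 in C4-HP. Pr-HP was thus above every other population, and its level was 5.76-fold the mean of the other 3 (139.3 ± 44.6 units, SD, n = 3). The study lists Perp as higher in Pr-HP too, but prints other intensities than the deposited ones, with a larger ratio. The limma test gave a log2 difference of 2.57 with a standard error of 0.37 and an adjusted p of 0.219, which missed the threshold. Perp has 1 probe set, so no second one could be read beside it. In clone 4 cells Perp was 1.14-fold lower at high than at low passage.

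Cdh4, which encodes R-cadherin, stood at 432.1 units in Pr-LP, 1449 in Pr-HP, 332.1 in C4-LP and 551.5 in C4-HP on probe set 113847_at. The study lists this probe set as higher in Pr-HP too, with other intensities and a similar ratio. Pr-HP was again the highest, at 3.30-fold the mean of the others (438.6 ± 109.8 units, SD, n = 3), with an adjusted p of 0.259 from limma. High passage was the higher one in both cell populations, by 3.35-fold in parental cells and by 1.66-fold in clone 4 cells. Probe set 95371_g_at gave 344.4, 712.5, 352.7 and 406.1 units, and 95898_at gave 505.7, 769.7, 477.8 and 621.8 units. Both had Pr-HP highest, at 1.94-fold and 1.44-fold the mean of the others, with adjusted p of 0.232 and 0.513 from limma. The fourth Cdh4 probe set, 95370_at, lay between 31.9 and 37.2 units and did not pass the filter.

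The remaining classical cadherins differed less. Cdh1, E-cadherin, stood at 730.6, 738.8, 693.7 and 715.2 units, so that its highest population was 1.06-fold its lowest. Cdh2, N-cadherin, stood at 563.9 units in Pr-LP, 647.8 in Pr-HP, 433.9 in C4-LP and 386.8 in C4-HP, with both parental populations above both clone 4 populations. Pr-HP was 1.40-fold the mean of the others for Cdh2, with an adjusted p of 0.615 from limma. Cdh3, P-cadherin, lay between 633.4 and 681.9 units, and Cdh24, a cadherin that binds catenins, between 1150 and 1300 units.

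Celsr2 gave different results with its 3 probe sets. The called probe set, 136592_f_at on chip C, stood at 166.6 units in Pr-LP, 33.7 in Pr-HP, 181.6 in C4-LP and 198.8 in C4-HP. The study lists Celsr2 as lower in Pr-HP by this same probe set, with other intensities and a larger ratio. On this probe set Celsr2 fell by 2.43 on the log2 scale in Pr-HP against the mean of the others (standard error 0.13, limma adjusted p = 0.0423). On 92363_at, the brightest, Celsr2 stood at 790.0, 656.8, 705.2 and 729.6 units. On 92364_at the values were 197.5, 154.5, 204.5 and 185.7 units. Pr-HP was the lowest on both of these, but by 1.13-fold and 1.27-fold against the mean of the others, with adjusted p of 0.718 and 0.489 from limma. The suffix of the called probe set marks, in Affymetrix naming, probes shared by a family of sequences. Its call was lost in 6 of 9 alternative settings, among them each that left out 1 of the other 3 populations, with adjusted p between 0.0644 and 0.379. The log2 difference itself stayed between -2.31 and -2.50 in 5 of these 6 settings and was -1.45 with the floor at the 40th percentile. Several of these settings called few or no probe sets of any gene. Celsr3 lay between 482.3 and 594.7 units, and Celsr1 did not pass the filter.

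Pcdh7, a protocadherin of the δ group, stood at 178.7 units in Pr-LP, 186.7 in Pr-HP, 178.6 in C4-LP and 168.0 in C4-HP on its brightest probe set, a range of 1.11-fold. The other Pcdh7 probe sets were dim and did not pass the filter. The readings on 107304_at were 45.4, 79.8, 59.4 and 50.9 units, and on 102280_at 25.8, 41.4, 29.5 and 26.6 units, with Pr-HP highest on both. A probe set of chip C that has no gene name in the platform annotation, and was not counted as a member, is listed under Pcdh7 by the study. Its values were 52.3, 260.0, 121.8 and 103.4 units, with Pr-HP at 2.81-fold the mean of the others and an adjusted p of 0.46 from limma. The study prints other intensities for it than the deposited ones, with a larger ratio. Among the other protocadherins, Pcdhb22 lay between 669.7 and 719.3 units. The log2 difference of Pr-HP from the mean of the others lay between -0.27 and 0.35 for the brightest probe sets of all 12 protocadherins compared. Dimmer probe sets, singled out after their values were seen, lay further out. On 135776_at Pcdh11x stood at 42.7 units in Pr-LP, 158.0 in Pr-HP, 151.8 in C4-LP and 89.4 in C4-HP, lowest in Pr-LP, which Pr-HP exceeded by 3.70-fold and C4-LP by 3.55-fold. Pcdh11x on this probe set is listed by the study as higher in C4-LP than in Pr-LP. The brightest Pcdh11x probe set was level, between 270.4 and 283.4 units. On 129028_at Pcdh9 stood at 54.6, 41.7, 120.9 and 68.5 units, highest in C4-LP, while its brightest probe set did not pass the filter. On 168390_f_at Pcdhb17 stood at 90.6, 56.5, 116.1 and 84.9 units, lowest in Pr-HP, with adjusted p of 0.378 from limma.

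**Figure D2:**
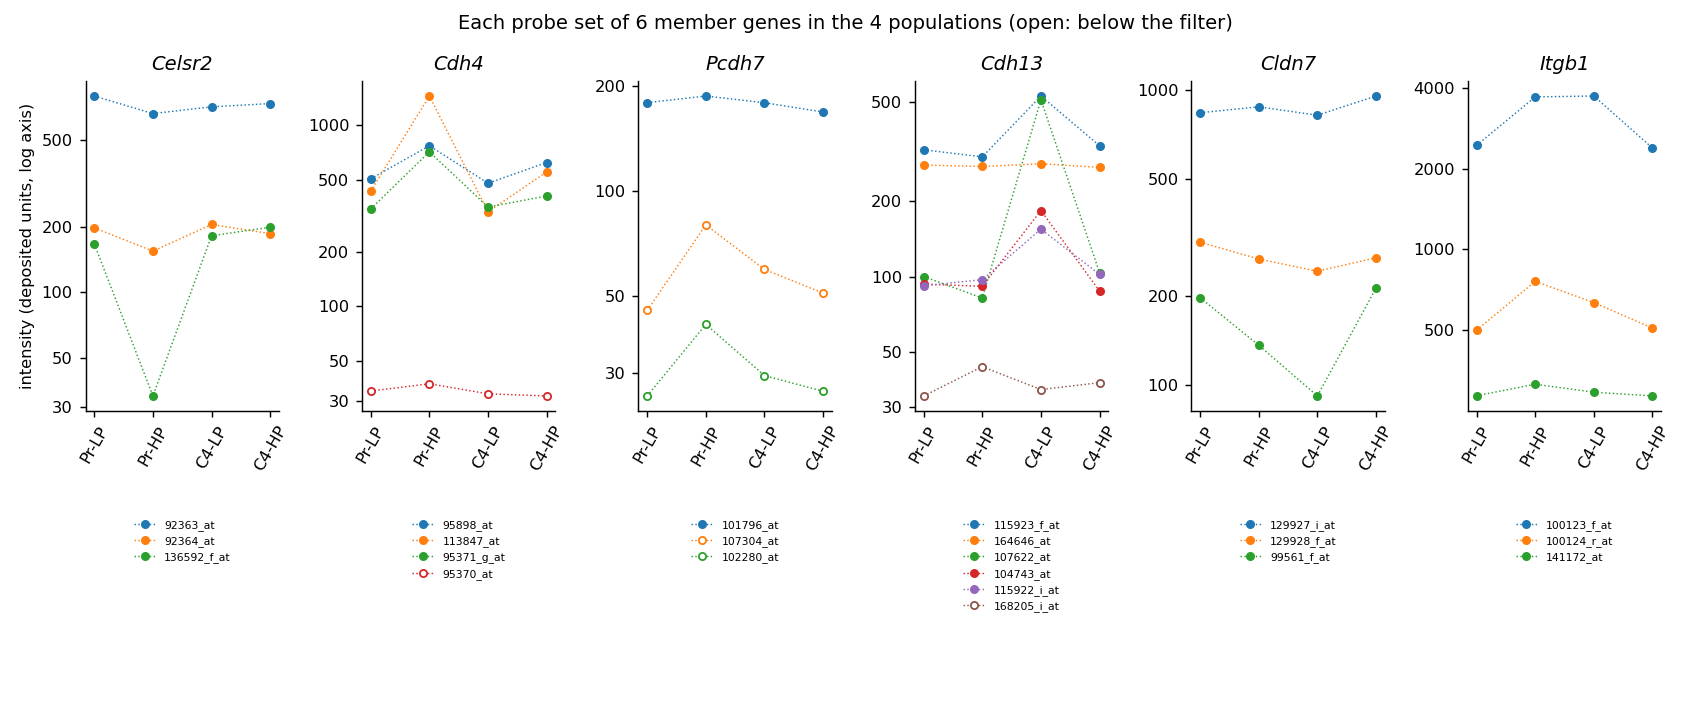
Intensity of every probe set of Celsr2, Cdh4, Pcdh7, Cdh13, Cldn7 and Itgb1 in the 4 populations, on a log axis in deposited units; each point is 1 array, open points are probe sets below the filter, and dotted lines only join points of 1 probe set. The called Celsr2 probe set drops to 33.7 units in Pr-HP while the other Celsr2 probe sets stay near level, and 3 of the 4 Cdh4 probe sets peak in Pr-HP.

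Between parental cells at high and low passage, 2 of the 60 members were more than 2-fold higher in Pr-HP by their brightest probe sets. These were again Perp (4.23-fold) and Cdh4 (3.35-fold), against 2.08% of all genes, and the place of Perp was known in advance. Another 2 were more than 2-fold lower, Cdh8 and Cldn4, against 1.62% of all genes. With 1 array on each side these ratios have no test. Cldn4 stood at 575.5 units in Pr-LP, 259.9 in Pr-HP, 250.2 in C4-LP and 252.4 in C4-HP. Only Pr-LP was high, by 2.21-fold over Pr-HP, and the other 3 populations lay within 10 units of each other. Cdh8, a type II cadherin, stood at 168.6 units in Pr-LP, 59.8 in Pr-HP, 93.6 in C4-LP and 71.8 in C4-HP. Pr-LP was 2.82-fold above Pr-HP for Cdh8, and the second Cdh8 probe set lay under the floor in all 4 populations. Gjd2, connexin 36, stood at 247.3, 140.9, 197.3 and 220.1 units. It was lowest in Pr-HP, by 1.57-fold against the mean of the others, with an adjusted p of 0.399 from limma.

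Within clone 4 cells no member passed 2-fold with passage by its brightest probe set. This held for higher (0 of 60, against 0.367% of all genes) and for lower (0 of 60, against 1.0% of all genes). Other probe sets did pass it. On 107622_at Cdh13 was 4.91-fold lower in C4-HP (103.7 units) than in C4-LP (508.7 units). On 104743_at Cdh13 was 2.10-fold lower, and on 99561_f_at Cldn7 was 2.32-fold higher. By the brightest probe sets the member furthest up at high passage was Cldn12, with a 1.80-fold difference between the clone 4 populations. Its values were 733.2 units in Pr-LP, 654.9 in Pr-HP, 474.1 in C4-LP and 855.0 in C4-HP. The member furthest down by the brightest probe sets was Itgb5, at 916.3 units in C4-LP and 545.9 in C4-HP, 1.68-fold lower. Its second probe set, 162218_f_at, read 269.3 and 232.5 units, 1.16-fold lower. Low-passage clone 4 and parental cells were compared last. By the brightest probe sets no member was more than 2-fold higher in C4-LP (against 1.85% of all genes). In the same count 2 were more than 2-fold lower, Cldn3 and Cldn4 (against 1.19% of all genes). Among other probe sets that passed the filter, single ones of Cdh13, Pcdh11x and Pcdh9 were past 2-fold higher, and 99561_f_at of Cldn7 past 2-fold lower. Cldn4 was 2.30-fold lower in C4-LP.

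Cldn3 stood at 227.5 units in Pr-LP, 132.6 in Pr-HP, 82.9 in C4-LP and 80.3 in C4-HP, so it was 2.75-fold lower in C4-LP than in Pr-LP and at an intermediate value in Pr-HP. A second Cldn3 probe set, 162315_f_at, lay between 69.4 and 74.7 units and did not pass the filter. Of the duct cell markers, 2 keratins were also highest in Pr-LP by a wide margin. Krt19 stood at 223.4 units in Pr-LP and between 56.4 and 57.6 units, under the floor, in the others, and Krt18 at 181.2 units in Pr-LP and between 63.3 and 88.4 units in the others. The other duct cell markers were mixed. Krt8 stood at 1834 units in Pr-LP and 1766 in C4-HP, against 1415 in Pr-HP and 1291 in C4-LP, and Krt7 at 2084 units in Pr-LP and between 1235 and 1586 units in the others. Sox9 was lowest in Pr-LP, at 687.9 units against 723.6 to 736.9, and Muc1 was highest in C4-HP, at 425.5 units against 380.4 in Pr-LP. Of 6 duct cell markers that passed the filter Krt19 and Krt18 were more than 2-fold lower in Pr-HP than in Pr-LP, and the summed intensity of the 7 measured was 5513 units in Pr-LP and between 3989 and 4719 units in the others. The part of such cells in the values of Cldn3 and Cldn4 was not tested.

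Other claudins did not share the wide margin of Pr-LP. Cldn2 was also highest in Pr-LP, but at 154.5 units against 138.1 to 143.6 in the others. Cldn7 stood at 840.3, 880.3, 824.3 and 957.7 units on its brightest probe set. On 99561_f_at it read 197.9, 136.5, 91.9 and 213.4 units, lowest in C4-LP, and 2.32-fold higher in C4-HP than in C4-LP. On 129928_f_at the values were 305.4, 267.9, 243.4 and 270.6 units. All Cldn7 probe sets were thus lowest in C4-LP, but they differed in the size of the difference and in which population was highest. Cldn6 lay between 549.9 and 652.8 units, with 652.8 in Pr-LP and 651.5 in C4-LP, and Cldn34c1 between 455.7 and 507.0 units. Cldn11 did not pass the filter, with 55.3, 130.9, 51.8 and 64.8 units, the one claudin below the filter with a Pr-HP value more than 1.5-fold above the rest. The other 3 Cldn11 values lie under the floor, so the ratio of Pr-HP to them, at least 1.95-fold, is a bound.

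**Figure D3:**
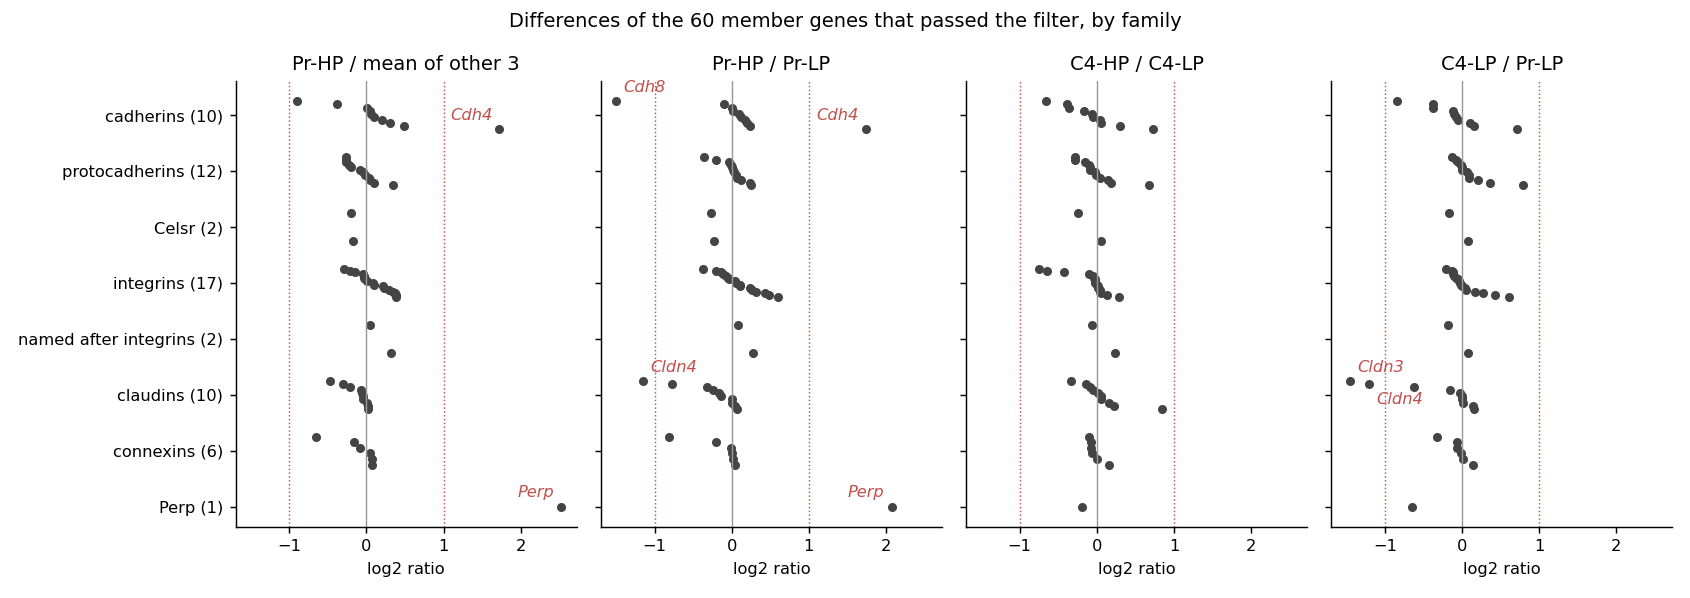
Log2 ratio of the 60 members that passed the filter, by family, in 4 comparisons. Each point is 1 gene by its brightest probe set, the number in brackets counts the genes, and dotted lines mark 2-fold. Perp and Cdh4 lie to the right in both comparisons of Pr-HP, Cdh8 and Cldn4 to the left in Pr-HP against Pr-LP, Cldn3 and Cldn4 to the left in C4-LP against Pr-LP, and no gene passes a dotted line between the clone 4 populations.

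The connexins that passed the filter were nearly level apart from Gjd2. Gja5 lay between 353.2 and 387.8 units, Gja4 between 238.1 and 265.2 units, Gjb1 between 204.8 and 217.0 units, Gjb5 between 196.4 and 217.4 units and Gjc1 between 192.9 and 222.0 units. Gja1, connexin 43, read 41.3 to 44.6 units and was among the 33 members below the filter. So were the laminin-binding subunit Itga6 (58.0 to 84.9 units) and the fibronectin-binding subunit Itga5 (106.0 to 109.0 units). A value below the filter is no statement that a gene was silent, since the files hold no detection call.

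Itgb1, the β subunit that pairs with most of these α subunits, had a passage difference of opposite direction in the 2 cell populations. On 100123_f_at, whose suffix is that of the called Celsr2 probe set, Itgb1 stood at 2443 units in Pr-LP, 3704 in Pr-HP, 3731 in C4-LP and 2388 in C4-HP. High passage was 1.52-fold higher in parental cells and 1.56-fold lower in clone 4 cells. It was the only one of the 60 members past 1.5-fold in opposite directions, a pattern of 1.4% of all genes. Its probe set 100124_r_at gave 500.2, 760.4, 634.2 and 509.2 units, the same directions with 1.52-fold and 1.25-fold, and 141172_at lay between 284.6 and 314.6 units. Itgav, the αv subunit, shared the order in part on 104386_f_at, which has the same suffix. Its values there were 2110 units in Pr-LP, 2837 in Pr-HP, 2539 in C4-LP and 1885 in C4-HP. On that probe set Itgav was 1.34-fold higher with passage in parental cells and 1.35-fold lower in clone 4 cells. Probe set 98366_at gave 191.3, 250.9, 251.7 and 181.0 units, the same directions. On 104385_i_at parental cells were nearly level, at 218.0 and 214.5 units, and clone 4 cells went from 207.1 to 181.8 units. Itgb5, a partner of αv, stood at 684.4 units in Pr-LP and 707.8 in Pr-HP.

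**Figure D4:**
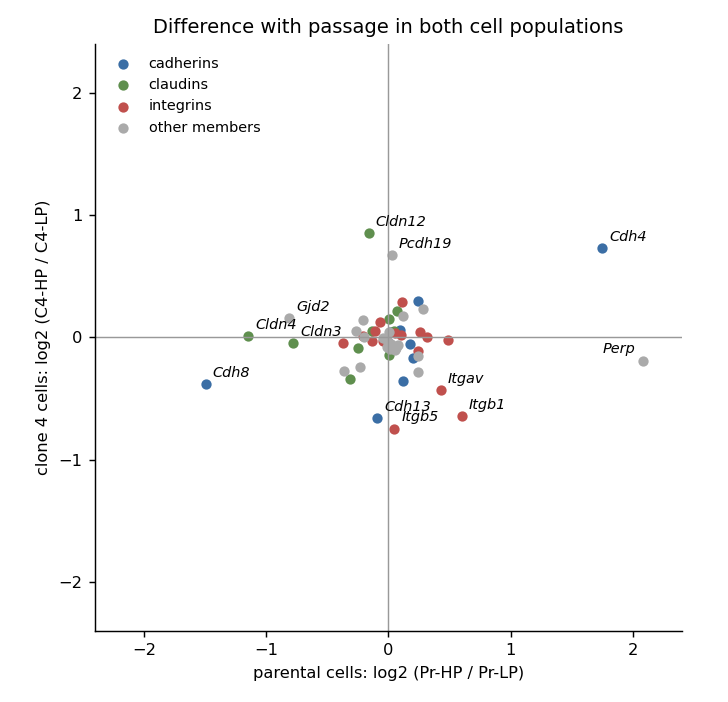
Log2 ratio of high to low passage in parental cells (x axis) and clone 4 cells (y axis) for the 60 members compared; each point is 1 gene, coloured by family. Itgb1 lies at 0.60 and -0.64, Cdh4 is above 0 on both axes, and Perp, Cdh8 and Cldn4 differ mainly along the parental axis.

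The other integrin subunits stayed within narrower bounds. Itga3, a laminin-binding subunit, stood at 259.0, 322.3, 250.1 and 250.7 units, with Pr-HP 1.27-fold above the mean of the others and an adjusted p of 0.441 from limma. Its second probe set gave 232.0, 264.1, 212.2 and 206.1 units, 1.22-fold in the same direction. Itga7 lay between 436.0 and 481.8 units, Itgb7 between 468.1 and 560.6 units, and Itga1, a collagen-binding subunit, between 76.2 and 93.4 units. Ratios of this size have a counterpart among the control probe sets of the arrays. The 18 control probe sets, all of Actb or Gapdh, were 1.22-fold to 1.62-fold higher in Pr-HP than in the mean of the others. This range holds the Pr-HP ratios of Cdh2, Itga3, Itgb1 and Itgav. It also holds those of Cdh4 on 95898_at and of Cdkn1a, described below.

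Cdh13, a cadherin without a cytoplasmic part, was singled out after its values were seen. On its brightest probe set it stood at 321.3 units in Pr-LP, 300.8 in Pr-HP, 526.7 in C4-LP and 333.4 in C4-HP. On 107622_at the values were 100.0, 82.1, 508.7 and 103.7 units, 5.09-fold higher in C4-LP than in Pr-LP. C4-LP was clearly the highest on these and also on 104743_at (183.6 units against 87.5 to 93.3) and 115922_i_at (154.7 units against 91.8 to 102.0). Cdh13 on 107622_at is listed by the study as higher in C4-LP than in Pr-LP and in C4-HP. Probe set 164646_at was level, between 273.1 and 282.4 units.

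The genes that work with the members were taken from lists, described here by counts and medians. Of the catenins, plakophilins and desmosome genes 16 of 20 measured passed the filter, none was past 2-fold in Pr-HP against the mean of the others and the median log2 difference was -0.004. Jup, plakoglobin, was high in Pr-LP and C4-HP, with 1470 units in Pr-LP, 622.8 in Pr-HP, 698.6 in C4-LP and 1186 in C4-HP. Ctnnb1, β-catenin, stood at 1677, 1417, 1426 and 887.3 units, lowest in C4-HP. Of the tight junction partners 13 of 18 measured passed the filter. None was past 2-fold in Pr-HP against the mean of the others, with a median log2 difference of 0.13. Amotl1, at 121.5, 236.2, 314.1 and 128.0 units, was past 2-fold higher in C4-LP than in Pr-LP and in C4-HP. F11r, the junctional adhesion molecule A, stood at 556.5 units in Pr-LP, 1055 in Pr-HP, 382.3 in C4-LP and 759.4 in C4-HP. High passage was the higher one in both cell populations for F11r, by 1.90-fold and 1.99-fold. Jam3 stood at 214.8, 436.3, 240.5 and 263.5 units, with Pr-HP 1.82-fold above the mean of the others and 2.03-fold above Pr-LP.

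Of the adaptors that link integrins to actin all 18 measured passed the filter, with a median log2 difference of 0.05. One was past 2-fold in Pr-HP, Parvb (β-parvin), at 151.6 units in Pr-LP, 347.9 in Pr-HP, 166.6 in C4-LP and 177.7 in C4-HP, 2.10-fold. Of the matrix ligands 17 of 24 measured passed the filter, with a median of -0.03. One was past 2-fold in Pr-HP, Edil3, a secreted ligand of αv integrins, at 68.0 units in Pr-LP, 1216 in Pr-HP, 370.7 in C4-LP and 193.8 in C4-HP. It is also listed by the study as higher in Pr-HP, with a larger ratio. Edil3 was 5.77-fold above the mean of the others, which themselves spanned 68.0 to 370.7 units, and its adjusted p from limma was 0.498. Mfge8, the related αv ligand, stood at 1520 units in Pr-LP, 2379 in Pr-HP, 4438 in C4-LP and 1400 in C4-HP. Mfge8 thus had the order of Itgb1 with respect to passage, higher by 1.56-fold with passage in parental cells and lower by 3.17-fold in clone 4 cells. The clone 4 difference of Mfge8 is also listed by the study.

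**Figure D5:**
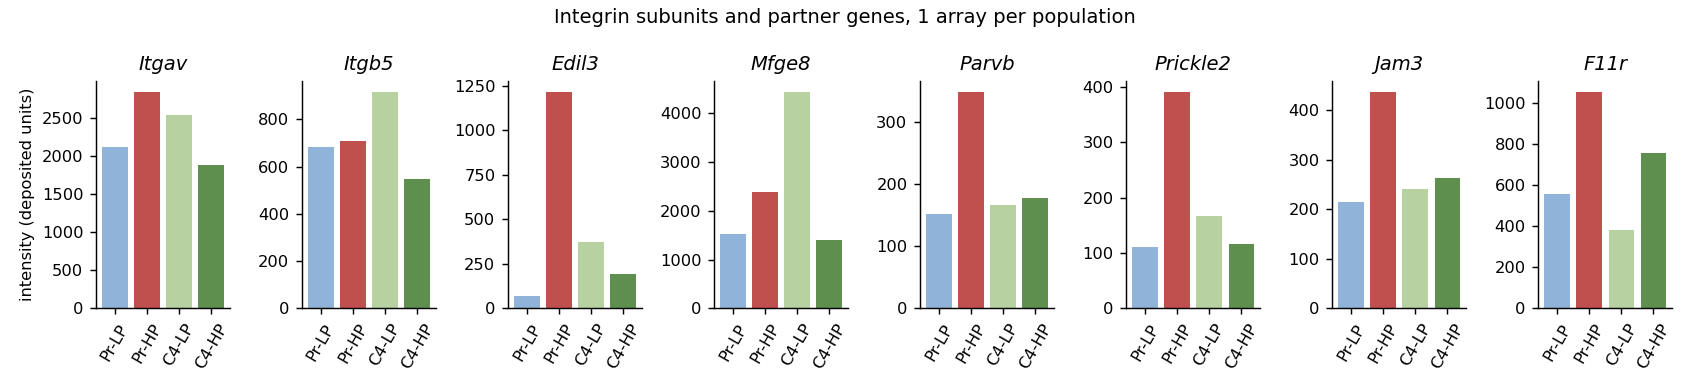
Intensity of Itgav and Itgb5 and of 6 partner genes in the 4 populations, in deposited units from 0; each bar is 1 array and each panel has its own scale. Edil3, Parvb, Prickle2, Jam3 and F11r stand highest in Pr-HP, and Mfge8 and Itgb5 highest in C4-LP (4438 and 916.3 units).

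Of the genes that act with Celsr proteins in planar cell polarity 10 of 12 measured passed the filter, with a median log2 difference of -0.03. One was past 2-fold in Pr-HP, Prickle2, at 110.3 units in Pr-LP, 390.5 in Pr-HP, 166.2 in C4-LP and 116.6 in C4-HP, 2.98-fold with an adjusted p of 0.257 from limma. Of the p53 targets listed beside Perp 11 of 13 measured passed the filter. None was past 2-fold in Pr-HP against the mean of the others, and the median was 0.09. Past 2-fold, 1 was lower in Pr-HP than in Pr-LP, and against Pr-LP 1 was higher and 1 lower in C4-LP. Cdkn1a, the cell cycle inhibitor p21, stood at 658.7, 997.7, 748.4 and 690.4 units, highest in Pr-HP by 1.43-fold against the mean of the others. Of the connexin partners and pannexins 3 of 4 measured passed the filter and none was past 2-fold, with a median of 0.21.

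Markers of other cell types were read beside these values. The β-cell gene Ins2 lay between 14771 and 15526 units in the 4 populations, where the study warns that the signal might leave the linear range. Of 6 β-cell markers that passed the filter 1 was past 2-fold in Pr-HP, Pcsk1, at 2.12-fold the mean of the others. Nkx2-2, Pdx1 and Iapp were lower in Pr-HP than that mean, by 1.32-fold, 1.20-fold and 1.17-fold. Slc2a2 was 1.80-fold lower, with 1754.5 units in C4-HP and 463.8 to 499.2 in the others. The median log2 difference of the list was -0.24. Of 8 leukocyte markers 3 passed the filter, and 1 was high in Pr-HP, Cd68. It stood at 176.6 units in Pr-LP, 1785 in Pr-HP, 209.7 in C4-LP and 196.1 in C4-HP. Pr-HP was 9.19-fold the mean of the others. Cd68 is also listed by the study as higher in Pr-HP, with other intensities and a larger ratio. The summed intensity of the leukocyte list was 2840 units in Pr-HP, of which Cd68 gave 1785, and between 1268 and 1316 units in the others. Cd14 (634.2 to 692.3 units) and Itgal (145.8 to 170.5 units) passed the filter too, and neither was raised in Pr-HP. The defining markers Ptprc (31.9 to 35.6 units) and Itgb2 (23.8 to 25.6 units) were dim in all 4 populations. Of 3 α-cell markers measured Gcg stood at 501.7 units in Pr-LP, 10552 in Pr-HP, 3175 in C4-LP and 2915 in C4-HP, with a summed intensity of 10829 units in Pr-HP and between 814.8 and 3731 units in the others. Irx1 was lowest in Pr-HP, at 235.4 units. No marker passed 2-fold in the lists of acinar cells (4 of 5 measured passed the filter), mesenchymal cells (3 of 7) and endothelial cells (3 of 6), comparing Pr-HP with the mean of the others. The part of such cells in the values of Perp and Cdh4 was not tested.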

How the data were processed

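Biotin-labelled RNA of each population was hybridised once to each of the 3 chips of the murine U74 set (version 2). The deposited files hold 1 intensity per probe set. The methods name the GeneChip 5.1 software, and how the deposited values were summarised and normalized is not given in these sources. The 4 arrays of a chip have nearly equal medians (213.7 to 215.5, 161.9 to 162.7 and 92.8 to 93.2 units on chips A, B and C), and the values were used unscaled. Probe sets were named from the platform annotation, and all 93 member symbols were found in the RefSeq table. Control probe sets (198 of 36899) were left out.

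The members, the lists and the tests were chosen with earlier results of these data known. The genes named are Perp, Celsr2 and Pcdh7, members past 2-fold in Pr-HP against the mean of the others or past 3-fold in another comparison, the 5 brightest of each family, a set of islet junction genes, members called by limma and partners past 2-fold. Others were named after their values were seen. Ratios are of linear intensities after the floor, and 2-fold counts carry no test. limma 3.58.1 in R 4.3.3 (lmFit and eBayes) compared Pr-HP with the other 3 populations on log2 intensities within each chip, with 2 residual degrees of freedom and Benjamini-Hochberg adjustment over the 3 chips together. Of its 19 calls 6 had all 3 other values at the floor. Precision is limited by the number of arrays. Alternatives were other thresholds, floors, filters, scalings and probe sets, leaving out 1 population, and the cell population as a term.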

Additional observations from a re-analysis of the deposited data

Results flagged for a closer look

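The passage difference of Itgb1 ran in opposite directions in the 2 cell populations. The log2 difference between high and low passage was 0.60 in parental cells and -0.64 in clone 4 cells, which differ by 1.24. With 1 array per population this difference was not tested, and of 12267 genes 115 were, like Itgb1, past 1.5-fold higher with passage in parental and lower in clone 4 cells, and 57 the reverse.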

How the results depend on the processing

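Of 88 alternative counts of members, 67 were equal to the reported one or within 1.5 times it. Many of these were a count of 0 beside a reported 0, where only an equal count could qualify, so they say little about stability. With a 3-fold threshold the 2 members lower in Pr-HP than in Pr-LP and the 2 lower in C4-LP than in Pr-LP became 0 and 0. With the floor at the 40th percentile 1 member was lower in C4-LP than in Pr-LP. With the second highest probe set of each gene 1 member was higher in Pr-HP than in the mean of the others, 1 was lower in Pr-HP than in Pr-LP, 2 were higher and 1 was lower in C4-LP than in Pr-LP. Leaving out 1 population gave 0 to 1 members lower in Pr-HP than in the mean of the others, with 1 when C4-LP or C4-HP was left out. Counting every probe set, an alternative chosen after seeing the data, gave 2 lower in Pr-HP than in the mean of the others, 4 higher in Pr-HP than in Pr-LP, 1 higher and 2 lower in C4-HP than in C4-LP, and 3 higher in C4-LP than in Pr-LP.

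The limma call of Celsr2 was lost (0 calls lower in Pr-HP) with the floor at the 40th percentile, without the filter and with the cell population as a term, with adjusted p of 0.17, 0.136 and 0.172, and 0 were called whichever population was left out. The log2 difference of that probe set stayed between -2.31 and -2.50 in these settings, against -2.43, except with the floor at the 40th percentile (-1.45). Several of these settings called few or no probe sets of any gene, so the loss was not particular to Celsr2. Without the filter 1 member was called higher in Pr-HP, Cldn11, whose other 3 values all lie under the floor and so have no spread there, which leaves the call without weight. The log2 difference of Cldn3 between C4-LP and Pr-LP was -1.46 on its brightest probe set and 0.007 on the second, which lies near the floor, and -0.57 with the floor at the 40th percentile. That of Cdh4 in Pr-HP against the mean of the others was 1.72 and, on the second highest probe set, 0.53. The other values of Perp, Cdh4, Cdh8, Cldn3 and Cldn4 moved by less than the spread of the other 3 populations. The causes were not tested. A comparison of protein features was not run.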
